A study of Mus musculus with 6 samples.

Results

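Interferon regulatory factors (IRFs) are transcription factors that bind, through a shared amino-terminal domain, the GAAA-rich elements in front of interferon genes and interferon-inducible genes. The 8 members described here, Irf1, Irf2, Irf3, Irf4, Irf5, Irf7, Irf8 and Irf9, were taken by their gene symbols. All 8 have a row among the 24421 genes of the deposited table, and all 8 passed the filter on low counts that left 13010 genes for testing. Poly(A) RNA was sequenced from dendritic cells that had been sorted from the bone marrow of C57BL/6 mice. Cells of 3 wild-type samples (WT) were compared with cells of 3 samples labelled TCL, from mice given an adoptive transfer of a murine chronic lymphocytic leukaemia (CLL). The sources used here do not state the age or sex of the mice, the sort markers, how many mice made up a sample or which transgene lies behind the TCL cells. The comparison asks how dendritic cells of the marrow differ in mice that carry this leukaemia.

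IRF3 and IRF7 are activated by phosphorylation downstream of nucleic acid sensors and Toll-like receptors and switch on interferon genes, and IRF5 acts in Toll-like receptor signalling to inflammatory cytokine genes. IRF9 is the DNA-binding part of the complex ISGF3, which carries the type I interferon signal to the nucleus, whereas IRF1 is induced by interferon-gamma, and IRF2 competes with IRF1 for the same sites. IRF4 and IRF8 are weak DNA binders alone that act with partners such as PU.1 and BATF3. In mice IRF8 is needed for type 1 conventional dendritic cells, and IRF4 for the full function of type 2 conventional dendritic cells and for plasma cells.

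The sequence around the annotated start of 4 members is shown because these 4 form the pairs compared below, Irf1 with its competitor Irf2 and Irf4 with its close relative Irf8. The sequences are RefSeq windows on GRCm38.p6, 250 bases before to 50 after the start, read 5′ to 3′ on the gene's strand. Capitals mark matches to the GAS element TTCNNNGAA, bound by STAT dimers, to the core of the interferon-stimulated response element (ISRE), which is GAAA, NN and GAAA, or to the ETS-IRF composite element (EICE), which is GGAA, NN and GAAA, where N is any base.
Irf1: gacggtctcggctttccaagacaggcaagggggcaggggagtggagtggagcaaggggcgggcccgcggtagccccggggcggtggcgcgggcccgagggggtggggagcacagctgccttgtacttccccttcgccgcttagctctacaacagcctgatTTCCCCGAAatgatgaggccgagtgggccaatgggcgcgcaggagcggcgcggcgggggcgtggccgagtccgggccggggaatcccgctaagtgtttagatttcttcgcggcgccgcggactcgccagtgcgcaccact
Irf2: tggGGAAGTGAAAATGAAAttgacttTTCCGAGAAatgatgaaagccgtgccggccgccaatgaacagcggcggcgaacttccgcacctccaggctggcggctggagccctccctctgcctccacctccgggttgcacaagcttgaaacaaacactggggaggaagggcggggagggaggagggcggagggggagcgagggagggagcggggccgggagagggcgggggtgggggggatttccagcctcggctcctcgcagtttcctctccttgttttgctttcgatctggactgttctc
Irf4: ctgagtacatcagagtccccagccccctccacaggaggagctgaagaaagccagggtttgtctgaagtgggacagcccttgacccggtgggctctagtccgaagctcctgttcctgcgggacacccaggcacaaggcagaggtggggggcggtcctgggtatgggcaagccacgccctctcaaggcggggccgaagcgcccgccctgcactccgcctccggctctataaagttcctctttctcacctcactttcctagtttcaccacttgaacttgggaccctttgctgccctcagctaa
Irf8: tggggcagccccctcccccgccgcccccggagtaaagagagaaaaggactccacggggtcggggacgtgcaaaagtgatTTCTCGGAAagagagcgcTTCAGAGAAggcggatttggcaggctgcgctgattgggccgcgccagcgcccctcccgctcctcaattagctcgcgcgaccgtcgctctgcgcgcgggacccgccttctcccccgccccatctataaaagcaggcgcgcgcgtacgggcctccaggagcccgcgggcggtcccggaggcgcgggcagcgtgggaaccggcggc
These windows lie at chr11:53769764-53770063 for Irf1, chr8:46739495-46739794 for Irf2, chr13:30748983-30749282 for Irf4 and chr8:120736108-120736407 for Irf8, all on the plus strand. The Irf1 window holds the GAS match TTCCCCGAA, which begins 90 bases before the start. In the Irf2 window the EICE match GGAAGTGAAA runs into the ISRE match GAAAATGAAA, and a GAS match TTCCGAGAA follows. The Irf8 window holds a pair of GAS matches, TTCTCGGAA and TTCAGAGAA, and none of the 3 motifs is in the Irf4 window. RefSeq lists 11 windows for the 8 members, of which 3 hold a GAS match, 1 an ISRE match and 1 an EICE match, on either strand. Irf1 and Irf8 each have a further, downstream window, not shown, that holds none of the 3 motifs. Over all 32851 promoter windows of the table, 8.30% hold a GAS match, 3.44% an ISRE match and 2.72% an EICE match. A match describes the letters in the window and says nothing about binding.

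Recovered read totals ran from 17158819 to 25674314 per library. In edgeR's quasi-likelihood fit, an adjusted p under 0.05 was reached by 612 of 13010 genes, of which 265 were higher in TCL and 347 lower. Fits that left out WT library 3, 7 or 9 called 280, 300 and 267 genes, and fits that left out TCL library 4, 8 or 10 called 249, 895 and 353. CPM are reads scaled to a common library size. Of 11 general dendritic cell markers 3 fell and 0 rose, with a median log2 fold change of -0.88, and their summed levels did not overlap, at 50818 to 66656 CPM in WT and 17786 to 39363 CPM in TCL. Those that fell were Flt3, from 186 to 81.4 CPM, Cd83, from 132 to 68.3 CPM, and Cst3, from 3611 to 1874 CPM, while Itgax (CD11c) was at 475 CPM in WT and 515 CPM in TCL. Most of the summed level came from Cd74 and the MHC class II genes H2-Ab1 and H2-Aa, at 29727, 13484 and 11607 CPM in WT. In TCL these 3 had 16163, 5825 and 5870 CPM and did not pass (adjusted p 0.131, 0.0573 and 0.0970 in edgeR). The sorts also held markers of other cells, and summed over 9 neutrophil markers the level was 27060 to 56959 CPM in WT and 13516 to 30459 CPM in TCL. Levels therefore belong to the sorted population as a whole, in which fewer cells of a type and less RNA per cell cannot be told apart. Nothing in the labels says that the samples came from separate mice, so the p-values rest on a spread between samples that may be technical.

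Of the 8 IRF genes, Irf1 rose and Irf4 fell in TCL, and the other 6 did not pass the test. That is 2 of 8 members called, beside 4.70% of all tested genes and 5.44% of the 4208 genes at least as abundant as the least abundant member. By direction the background was 2.04% of tested genes higher and 2.67% lower. The libraries of the groups did not overlap for 2 of 8 members, or 25.0%, beside 28.2% of all tested genes, so separation by itself was about as frequent as among all genes. In the authors' deposited table the adjusted p of Irf1 was 0.00229 and that of Irf4 was 0.000559, and the other 6 had adjusted p of 0.309 or more, where 8.11% of 16753 genes passed.

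**Figure D1:**
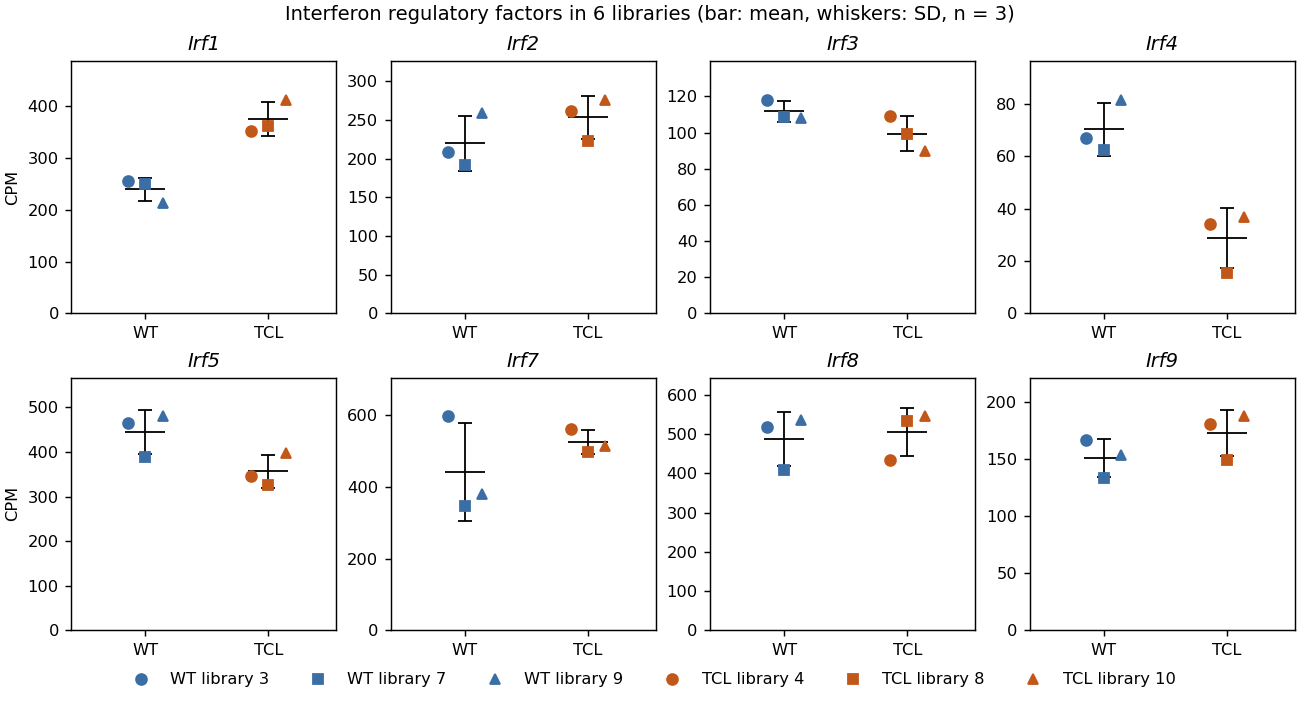
Level of each interferon regulatory factor gene in CPM (vertical axes, starting at 0) in the 3 WT and 3 TCL libraries, with the mean and SD of each group. Irf1 and Irf4 are the genes whose groups do not overlap, Irf1 higher at 351 to 412 CPM and Irf4 lower at 15.5 to 36.7 CPM in TCL.

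Irf1, the interferon-gamma-induced activator, rose 1.57-fold in TCL. It had 255, 249 and 213 CPM in WT libraries 3, 7 and 9, and 351, 361 and 412 CPM in TCL libraries 4, 8 and 10. Every TCL library lay above every WT library, with means of 239 ± 22.7 CPM in WT and 375 ± 32.6 CPM in TCL (SD, n = 3 each). The log2 fold change was 0.65 (SE 0.15, 95% interval 0.31 to 0.99), with an adjusted p of 0.0421 in edgeR. Of all tested genes 21.8% had a larger absolute change. The size of the change held when single libraries were left out, at 0.58 to 0.70, but the adjusted p did not stay under 0.05. With WT library 3, 7 or 9 left out it was 0.106, 0.0981 and 0.128, and with TCL library 4, 8 or 10 left out it was 0.0981, 0.0412 and 0.09996. The gene lies at chr11:53770014-53778374 of GRCm38 on the plus strand.

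Irf2, which competes with IRF1, had 209, 192 and 260 CPM in WT libraries 3, 7 and 9 and 261, 223 and 276 CPM in TCL libraries 4, 8 and 10. These ranges overlap, and the log2 fold change of 0.20 (SE 0.17, 95% interval -0.17 to 0.58) did not pass the test, with an adjusted p of 0.497 in edgeR. Within each library the reads of Irf1 were also set against those of Irf2, a ratio that does not depend on the scaling between libraries. It was 1.22, 1.30 and 0.821 in WT libraries 3, 7 and 9 and 1.35, 1.62 and 1.49 in TCL libraries 4, 8 and 10, higher in all 3 TCL libraries than in any WT library. The log2 ratio was higher by 0.44 in TCL, with an exact permutation p of 0.1, which is the smallest that 3 against 3 allows, and 0.15 after Benjamini-Hochberg adjustment over the 3 ratios tested. WT library 9 carried much of this difference, which was 0.23 without it.

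Irf4, which in the marrow is expressed by type 2 dendritic cells, B-lineage cells and plasma cells, fell 2.44-fold in TCL. Its level was 66.9, 62.2 and 81.6 CPM in WT libraries 3, 7 and 9, and 34.3, 15.5 and 36.7 CPM in TCL libraries 4, 8 and 10. Even the lowest WT library was above the highest TCL library, and TCL library 8 stood well under the other TCL libraries. Means were 70.3 ± 10.1 CPM in WT and 28.8 ± 11.6 CPM in TCL (SD, n = 3 each). The log2 fold change was -1.28 (SE 0.29, 95% interval -1.94 to -0.63), with an adjusted p of 0.0399 in edgeR, and 7.49% of tested genes had a larger absolute change. Leaving out single libraries gave -1.48 to -0.99. The adjusted p was then 0.106, 0.0748 and 0.0958 with WT library 3, 7 or 9 left out, and 0.0836, 0.01495 and 0.0452 with TCL library 4, 8 or 10 left out. Irf4 lies at chr13:30749226-30766976 of GRCm38 on the plus strand.

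Some markers of the cell types that express Irf4 fell in TCL as well. Of 9 markers of type 2 conventional dendritic cells 4 fell and 0 rose, and 6 had a negative and 3 a positive log2 fold change. Those that fell were the lectin genes Cd209a, Mgl2, Clec10a and Cd209d. Sirpa, at 1128 CPM in WT and 1563 CPM in TCL, and Itgam, at 487 and 690 CPM, were higher in TCL with no overlap. They did not pass (adjusted p 0.161 and 0.109 in edgeR), and the groups did not overlap for 28.2% of all tested genes. The summed level over all 9 markers was 3480 to 4297 CPM in WT and 2634 to 3023 CPM in TCL. In TCL most of it came from Sirpa, Itgam and Clec12a, at means of 1563, 690 and 507 CPM. Cd209a, Mgl2 and Clec10a had means of 29.1, 5.07 and 53.0 CPM there. Of 15 B cell markers 8 fell and 0 rose, with sums of 377 to 911 CPM in WT and 232 to 320 CPM in TCL. Of 8 plasma cell markers 1 fell, Jchain, from 1002 to 83.5 CPM. The sums over the 8 were 1312 to 2160 CPM in WT and 484 to 704 CPM in TCL. In TCL most of the plasma cell sum came from Xbp1 and Txndc5, at means of 325 and 160 CPM. Neither passed (adjusted p 0.557 and 0.782 in edgeR). No marker of these 3 lists was at 0 reads in all libraries. TCL library 8 was the lowest for Irf4. Of the TCL libraries it was also lowest in the type 2 sum, mostly from Sirpa, Itgam and Clec12a. That sum was 2634 CPM in TCL library 8 against 3023 and 2917 CPM in TCL libraries 10 and 4. The B cell sum of TCL library 8, 308 CPM, lay between 232 and 320 CPM. Its plasma cell sum of 704 CPM, in TCL mostly from Xbp1 and Txndc5, was above 484 and 677 CPM. The sum of 11 general dendritic cell markers, mostly from Cd74, H2-Ab1 and H2-Aa, was lowest in TCL library 8, at 17786 CPM against 35436 and 39363 CPM. In the sum of 8 erythroid markers this library was highest, at 320 CPM against 79.3 and 95.01 CPM. Of these 8, Hbb-bt, Hba-a1 and Hba-a2 had 0 reads in every library and Hbb-bs had 5 reads in WT and 20 in TCL, so that 4 genes carried the sum. The part of these markers in the fall of Irf4 was not tested.

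Irf8, which maintains type 1 conventional dendritic cells and is also expressed by plasmacytoid cells, B cells and monocytes, did not pass the test. It had 519, 408 and 537 CPM in WT libraries 3, 7 and 9 and 435, 534 and 546 CPM in TCL libraries 4, 8 and 10, so the ranges largely coincide. The log2 fold change was 0.05 (SE 0.17, 95% interval -0.33 to 0.43), with an adjusted p of 0.890 in edgeR, and its sign turned without WT library 7 (-0.06). Irf8 had 7.75, 6.56 and 6.58 reads per Irf4 read in WT libraries 3, 7 and 9, and 12.7, 34.3 and 14.9 in TCL libraries 4, 8 and 10. All TCL libraries had a higher ratio than all WT libraries. The log2 ratio was 2.80 ± 0.14 in WT and 4.22 ± 0.77 in TCL (SD, n = 3 each), a difference of 1.42 with an exact permutation p of 0.1, the smallest possible, or 0.15 when adjusted over the 3 ratios. It was 0.98 without TCL library 8.

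**Figure D2:**
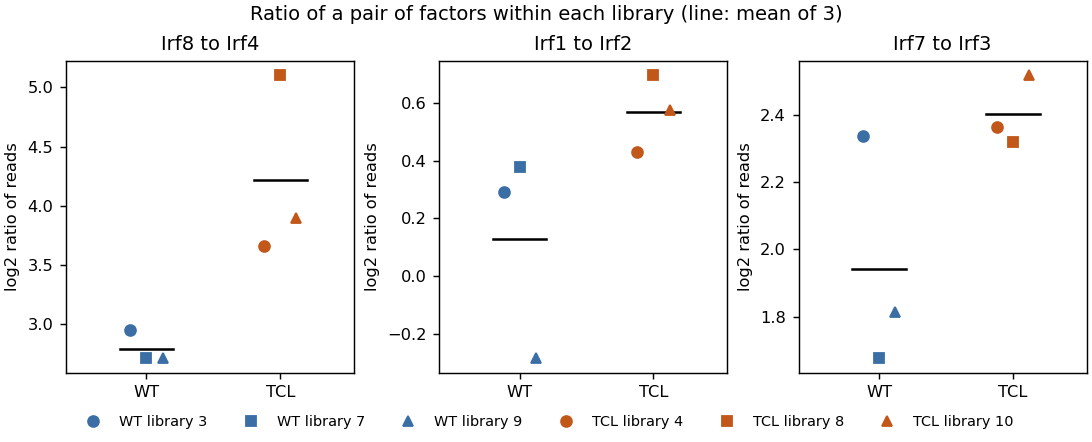
Log2 ratio of the reads of 3 pairs of factors within each library (vertical axes, each with its own range), in 3 WT and 3 TCL libraries, with lines at the means. The WT and TCL libraries separate for Irf8 to Irf4 and for Irf1 to Irf2, and overlap for Irf7 to Irf3, where WT library 3 lies among the TCL libraries.

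Among the factors activated by sensors, Irf7, the interferon-inducible amplifier of type I interferon production, was the most variable in WT. It had 598, 347 and 380 CPM in WT libraries 3, 7 and 9 against 562, 497 and 515 CPM in TCL libraries 4, 8 and 10, and WT library 3 was the highest of all 6. The log2 fold change was 0.25 (SE 0.21, 95% interval -0.23 to 0.72, adjusted p 0.514 in edgeR), and it was 0.53 without WT library 3 and 0.10 without WT library 7, past the threshold in neither case. The coefficient of variation of Irf7 over the WT libraries was 30.8%, while the other 7 members had 5.06% to 16.1%.

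Irf3, the constitutive counterpart of Irf7, had 118, 109 and 108 CPM in WT libraries 3, 7 and 9 and 109, 99.4 and 89.9 CPM in TCL libraries 4, 8 and 10. Ranges just overlap, and the log2 fold change was -0.17 (SE 0.14, 95% interval -0.48 to 0.15, adjusted p 0.511 in edgeR). There were 5.05, 3.19 and 3.51 Irf7 reads per Irf3 read in WT libraries 3, 7 and 9, and 5.16, 4.9996 and 5.73 in TCL libraries 4, 8 and 10. WT library 3 lay within the TCL range, and the exact permutation p was 0.2, unchanged by adjustment over the 3 ratios. The log2 difference of this ratio was 0.46, and 0.66 without WT library 3.

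Irf5, which drives inflammatory cytokine genes, had 465, 388 and 480 CPM in WT libraries 3, 7 and 9 and 345, 327 and 397 CPM in TCL libraries 4, 8 and 10. Only WT library 7 fell within the TCL range. The log2 fold change was -0.32 (SE 0.16, adjusted p 0.264 in edgeR), and the 95% interval ran from -0.67 to 0.03. Irf9, the DNA-binding part of ISGF3, had 167, 133 and 153 CPM in WT libraries 3, 7 and 9 and 181, 149 and 187 CPM in TCL libraries 4, 8 and 10, with overlapping ranges. Its log2 fold change was 0.19 (SE 0.16, 95% interval -0.16 to 0.55, adjusted p 0.495 in edgeR). Of the annotated exon bases of Irf5, 14.1% are shared with Tnpo3 on the opposite strand, and of those of Irf9 2.28% with Rnf31 on the same strand. How strand was handled in the counting is not stated, so reads in these stretches cannot be assigned with certainty.

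**Figure D3:**
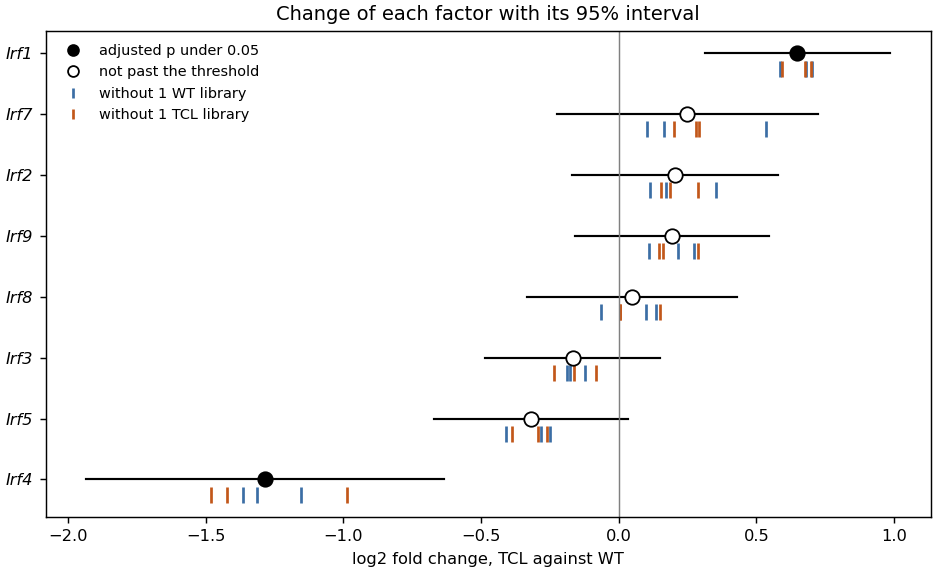
Log2 fold change of TCL against WT (horizontal axis) for each factor, with its 95% interval from edgeR, filled where the adjusted p was under 0.05. Ticks under each point show the change with single libraries left out, which stayed at 0.58 to 0.70 for Irf1 and -1.48 to -0.99 for Irf4 and crossed 0 for Irf8.

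Levels were compared between genes per kilobase of annotated exon, on the CPM scale (RPKM). In WT the order from high to low was Irf7 at 185 ± 56.9 RPKM, Irf5 at 168 ± 18.6, Irf8 at 142 ± 20.3, Irf2 at 88.1 ± 14.2, Irf1 at 71.6 ± 6.81, Irf3 at 51.0 ± 2.58, Irf9 at 48.7 ± 5.46 and Irf4 at 14.7 ± 2.12 RPKM (SD, n = 3). The ranges of Irf7 and Irf5 overlapped in WT, as did those of Irf5 and Irf8 and those of Irf3 and Irf9. In TCL the order was Irf7 at 219 ± 14.1 RPKM, Irf8 at 147 ± 17.8, Irf5 at 135 ± 13.7, Irf1 at 112 ± 9.77, Irf2 at 102 ± 11.05, Irf9 at 55.6 ± 6.54, Irf3 at 45.4 ± 4.39 and Irf4 at 6.06 ± 2.43 RPKM. In TCL the ranges of Irf8 and Irf5 overlapped, as did those of Irf9 and Irf3. Within single libraries Irf3 stood above Irf9 in every WT library and under it in every TCL library. The gap was narrow in WT library 9, at 49.42 against 49.39 RPKM. Irf5 stood above Irf8 in every WT library, and also in TCL library 4, at 130 against 127 RPKM. These changes of order were not tested. Irf1 stood under Irf2 in WT by a narrow gap, with 76.44 RPKM in the highest Irf1 library and 76.75 RPKM in the lowest Irf2 library. In TCL Irf1 stood above Irf2 with overlapping ranges. Within single libraries Irf1 was under Irf2 in every WT library and above it in every TCL library. The gap was narrow in TCL library 4, at 105.3 against 104.6 RPKM. The WT order rests on the exon lengths taken, since Irf1 had 1.22 and 1.30 reads per Irf2 read in WT libraries 3 and 7. Irf7 lay at a higher level per length than 97.6% of 12538 tested genes with a length, Irf5 than 96.5% and Irf8 than 96.3%, but Irf4 than 58.1%.

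As a share of the summed RPKM of the 8 members, Irf1 made up 9.42 ± 1.56% in WT and 13.7 ± 0.693% in TCL, and Irf4 1.93 ± 0.280% and 0.729 ± 0.270%. Irf5 took 21.9 ± 1.39% in WT and 16.3 ± 0.808% in TCL, and Irf8 18.5 ± 1.35% and 17.9 ± 2.24% (SD, n = 3). The sum itself was 668 to 858 RPKM in WT and 781 to 867 RPKM in TCL, overlapping ranges. These shares depend on the exon lengths taken and carry no test.

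**Figure D4:**
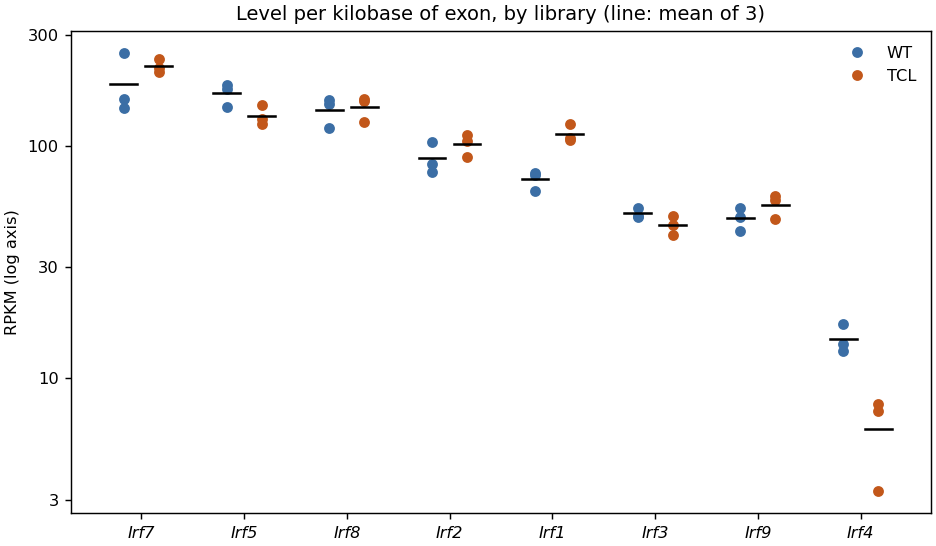
Level of each factor in RPKM (vertical log axis) in each WT and TCL library, with lines at the group means, in the order of the WT means. Irf7, Irf5 and Irf8 lie highest in WT and Irf4 lies lowest in both groups. The mean of Irf1 moves above that of Irf2 in TCL, where their ranges overlap but Irf1 is the higher within each library.

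The genes most like the 2 called members in their course over the 6 libraries were sought by the smallest root mean square difference of centred log2 CPM among 9795 genes. Closest to Irf1 were Ell2, an elongation factor gene, at a difference of 0.081, the inhibitory receptor gene Pirb at 0.094 and Zdhhc6, a palmitoyltransferase gene, at 0.097. Their log2 fold changes were 0.63, 0.64 and 0.67. Closest to Irf4 were the sodium-proton exchanger gene Slc9a9 at 0.156, the chemokine gene Xcl1 at 0.158 and the MHC class II gene H2-Eb1 at 0.187. Theirs were -1.14, -1.35 and -1.10. Likeness to a called gene fixes the direction of these 6 genes and much of their separation, so the values are a description with no test.

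Genes that act around the IRF factors were described from 9 lists. The median log2 fold change over all tested genes was 2.6e-05. Of 11 interferon receptor, JAK and STAT genes 2 rose and 0 fell, with 9 not passing and a median of 0.41. Stat3 rose by 0.67 and Ifnlr1, a chain of the interferon-lambda receptor, by 1.596 on the log2 scale, while Jak2 had 0.59 (adjusted p 0.149 in edgeR) and Stat2, whose product joins IRF9 in ISGF3, 0.55 (adjusted p 0.160 in edgeR). Stat3 lost its call when any library but TCL library 8 was left out (adjusted p up to 0.109), and Ifnlr1 lost its call when WT library 3 (0.063) or TCL library 4 (0.0535) was left out. With WT library 3 or TCL library 4 left out 0 genes of this list rose, and with WT library 7 or 9 or TCL library 10 left out 1 rose.

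Of 21 sensors, adaptors and kinases upstream of IRF3, IRF5 and IRF7, 2 rose, 0 fell and 19 did not pass, with a median of 0.31. Ikbke, a kinase that phosphorylates IRF3 and IRF7, rose from 39.7 ± 13.1 to 147 ± 28.3 CPM, or by 1.88 on the log2 scale (SE 0.25), with an edgeR adjusted p of 0.00432. The RNA sensor gene Ifih1 rose by 1.04, a call lost when WT library 7 or 9 or TCL library 4 or 10 was left out, at an adjusted p of up to 0.104. Myd88, the adaptor of most Toll-like receptors, had a log2 value of 0.54 at an adjusted p of 0.0906, and the RNA sensor gene Ddx58 of 0.56 at 0.0761. With TCL library 8 left out 5 genes of this list rose, and with WT library 7 or 9 or TCL library 4 or 10 left out 1 rose, while with TCL library 10 left out 1 also fell.

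Among 18 partner factors and regulators of IRF proteins 1 rose, 1 fell and 16 did not pass, with a median of 0.04. Batf2, which partners IRF1 in macrophages, rose from 7.78 ± 2.15 to 25.3 ± 5.77 CPM. Batf3, which partners IRF8 in type 1 dendritic cells, fell from 102 ± 9.88 to 48.98 ± 15.0 CPM (log2 fold change -1.06, adjusted p 0.0259 in edgeR). The call of Batf3 was lost without any single library but TCL library 8, with adjusted p up to 0.103, and with WT library 9 left out 2 genes of the list rose. The Ikaros family gene Ikzf3 had 0.83 (adjusted p 0.0755) and the ubiquitin ligase gene Trim21 0.58 (adjusted p 0.09501).

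The interferon genes themselves were hardly detected. Of 14 on the list, 12 had 0 reads in every library, where 0 reads allow up to 0.112 to 0.184 CPM per library by counting error alone. Ifnb1, named after its values were seen, had 8 reads over the WT and 3 over the TCL libraries, and was not tested. Ifng had 124 and 129 reads, and an edgeR log2 fold change of -0.25 with an SE of 0.55 (adjusted p 0.821), whose sign turned without WT library 9 (0.17).

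Of 21 tested genes listed as IRF1 targets 4 rose, 1 fell and 16 did not pass, with a median of 0.37. The guanylate-binding protein genes Gbp2 and Gbp5, Cd274, the gene of the inhibitory ligand PD-L1, and Il15ra, which presents interleukin 15, were those that rose. Gbp2 went from 80.1 ± 21.4 to 260 ± 76.3 CPM, Cd274 from 77.8 ± 16.2 to 259 ± 82.9 CPM and Il15ra from 13.03 ± 1.89 to 33.7 ± 4.57 CPM. Vcam1, an adhesion gene that marrow macrophages and stromal cells also express, fell from 197 ± 34.3 to 78.9 ± 10.7 CPM. Of 12 marrow macrophage markers, Vcam1 among them, 5 fell and 1 rose, with sums of 10622 to 12247 CPM in WT and 3815 to 5586 CPM in TCL, and their part in the fall of Vcam1 was not tested.

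Of 27 genes listed as ISGF3 targets 5 rose, 0 fell and 22 did not pass, with a median of 0.42. Oas2, Oas3, Oasl2, Zbp1 and Ifih1 were the 5, and Ifih1 is also on a list above. Zbp1, a sensor of Z-form nucleic acid, rose from 117 ± 30.9 to 243 ± 18.0 CPM (SD, n = 3 each), and the oligoadenylate synthetase genes Oas2 and Oas3 rose by 0.86 and 0.90 on the log2 scale. Oasl2, of the same family, rose by 0.97, a call lost when WT library 9 or TCL library 4 was left out, at an adjusted p of up to 0.0586. Leaving out WT library 7 left 2 rising genes, WT library 9 left 0 and TCL library 4 left 1. The summed level of the list was 2525 CPM in WT library 3, 1852 and 1943 CPM in WT libraries 7 and 9, and 2904 to 3002 CPM in TCL. WT library 3, the highest of the WT libraries in this sum, was also the highest of all libraries for Irf7, which is not on the list.

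Of 13 genes listed as dependent on IRF8 in type 1 dendritic cells 2 fell, 0 rose and 11 did not pass, with a median of -0.95. Clec9a, a receptor for dead cells, fell from 107 ± 18.1 to 34.8 ± 14.2 CPM, and Batf3 is the other. Xcr1, the receptor for XCL1, was at -1.12 on the log2 scale (edgeR adjusted p 0.177) and Rab7b at -1.03 (0.0931). Without TCL library 10 Xcr1 was at -1.99 and passed the test (adjusted p 0.00268 in edgeR), and without TCL library 8 it was at -0.83 and did not (0.237). Leaving out WT library 3 left 0 falling genes, leaving out WT library 7 or 9 or TCL library 4 left 1, and leaving out TCL library 10 gave 5. Irf8 itself had a 95% interval of -0.33 to 0.43 in the same libraries. The 8 type 1 dendritic cell markers are all on this list, with sums of 1030 to 1207 CPM in WT and 533 to 948 CPM in TCL, and the part of this cell type was not tested.

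Of 14 genes listed as dependent on IRF4 5 fell, 0 rose and 9 did not pass, with a median of -0.69. The lectin genes Mgl2, Cd209a and Clec10a fell from 216 ± 36.8 to 5.07 ± 0.730 CPM, from 723 ± 249 to 29.1 ± 13.8 CPM and from 463 ± 77.4 to 53.0 ± 8.42 CPM. The chemokine genes Ccl22 and Ccl17 had log2 fold changes of -3.98 and -3.58. These 5 are markers or products of type 2 and mature dendritic cells, and 3 of them are also on the marker list above. Of the 14 genes 10 had a negative and 4 a positive log2 fold change. The positive ones were Pdcd1lg2 at 1.12, Ciita at 0.61, Klf4 at 0.59 and Ccr7 at 0.54, and none passed (adjusted p 0.0971, 0.533, 0.206 and 0.272 in edgeR). Leaving out WT library 9 left 4 falling genes and any other library 5, and with TCL library 8 left out 2 rose. Of 8 tested cytokine genes linked to IRF5 1 rose, Il1b, from 156 ± 58.8 to 344 ± 24.4 CPM, 0 fell and 7 did not pass, with a median of 0.08. On the log2 scale Il12b was at 0.85 (edgeR adjusted p 0.233), Ccl3 at -0.73 (0.163) and Ccl5 at -0.45 (0.179). The call of Il1b was lost when WT library 7 or 9 or TCL library 4 or 10 was left out, at an adjusted p of up to 0.0982.

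**Figure D5:**
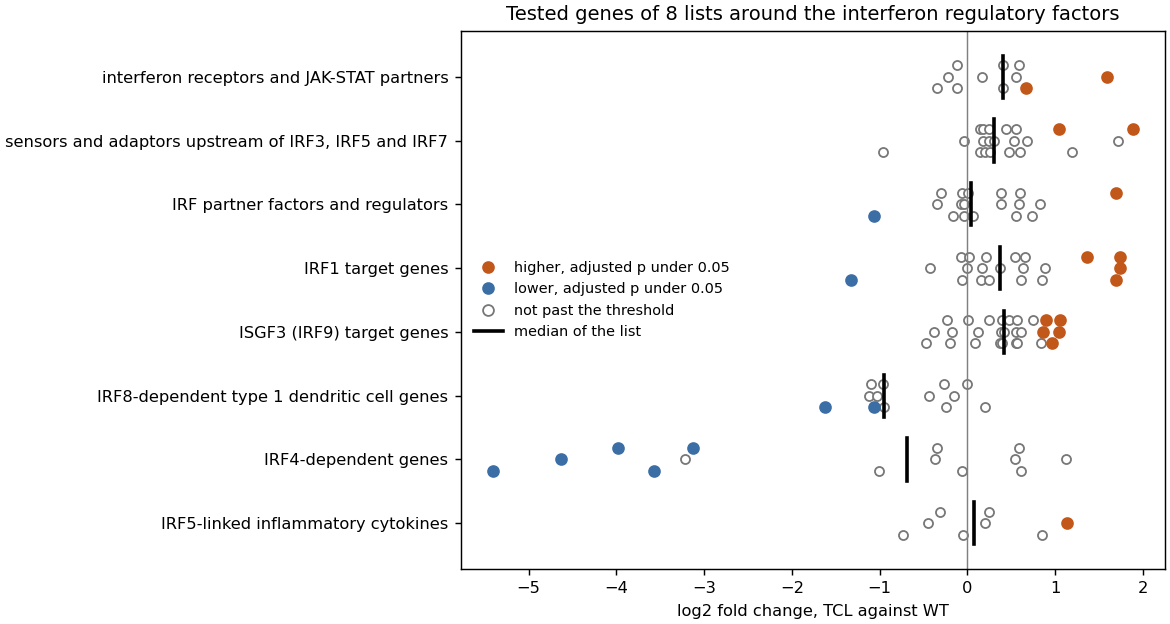
Log2 fold change of TCL against WT (horizontal axis) for each tested gene of 8 lists, filled where the adjusted p in edgeR was under 0.05, with a bar at the median of each list. The medians lie between 0.31 and 0.42 for receptors, sensors, IRF1 targets and ISGF3 targets, and at -0.95 and -0.69 for the genes listed as dependent on IRF8 and IRF4.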

How the data were processed

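Poly(A) RNA was sequenced from 3 WT and 3 TCL samples. Tools listed in the submitters' processing notes are STAR 2.4.2a, cutadapt, DESeq2 and HTSeq, with the build mm10 and no roles. The table the authors deposited holds a normalized signal per gene and library, headed as normalized counts per the file headers, beside the authors' own mean, log2 fold change, p-value and adjusted p-value. Each nonzero value divided by the smallest of its library gave a whole number within 0.001 (100% of values), so whole reads were recovered. Columns carry running numbers that are in no label and were used as libraries of their group.

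Reads were filtered with filterByExpr, scaled with TMM factors and tested with edgeR 4.0.16 (R 4.3.3), quasi-likelihood, with Benjamini-Hochberg adjustment over 13010 genes and a threshold of 0.05. Standard errors come from the log2 fold change and its F statistic. Because the deposited unit is a normalized signal, limma 3.58.1 with a trend on its log2 after adding 1 was run beside it, and called 588 genes against 612. Ratios used reads plus 0.5 and a two-sided exact permutation test. Exon lengths are unions of GENCODE M21 basic transcripts on GRCm38, the assembly of mm10. Floors of 3 reads cover counting error only, since PCR reads are not independent molecules.

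Members and lists were chosen with earlier results of these data known, so the lists are no independent evidence. Some genes are not reported here. Named genes are the 8 members, up to 4 genes of smallest adjusted p from each of 9 lists, and the 3 genes most like each called member with a mean of at least 5 CPM. Genes named beyond this, namely Gbp5, Ccl17, Pdcd1lg2, Klf4, Ccr7, Ifnb1 and those of the marker lists, were chosen after their values were seen. Cell types were described by 13 marker lists. Alternatives were other scalings, filters, DESeq2 1.42.0, limma, leaving out each library and, added after the data were seen, a block of neighbouring column numbers.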

Additional observations from a re-analysis of the deposited data

How the results depend on the processing

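The 16 alternative settings left the sign of every member but Irf8 as it was, and Irf8 ran from -0.064 without WT library 7 to 0.15 without TCL library 4. Irf1 ranged from 0.58 to 0.74 and passed the threshold in 11 of 16 settings, and Irf4 from -1.48 to -0.99 and passed in 12. All the settings that lost either call left out a library, which also leaves fewer samples. With 6 libraries both were called by edgeR under each scaling and filter tried, by DESeq2, limma-voom and limma-trend, and no other member was called in any setting. The number of members called was 0 to 2 when single libraries were left out. The number of genes called was 972 with no filter, 1455 with DESeq2 and 249 to 895 when single libraries were left out, and the cause was not tested. Of the 612 calls DESeq2 shared 612. With limma-trend the count was 588, and 690 with a pseudocount of 5. Scaling by library size only gave 339 genes higher and 291 lower, against 265 and 347. Ifng ran from -0.61 without WT library 3 to 0.17 without WT library 9. The ratio differences kept their sign, with 0.98 to 1.70 for Irf8 to Irf4, 0.23 to 0.56 for Irf1 to Irf2 and 0.33 to 0.66 for Irf7 to Irf3 when single libraries were left out. The columns carry none of the replicate numbers of the labels, so these could not serve for pairing. Their running numbers are neighbours (3 and 4, 7 and 8, 9 and 10), and a replicate block on these, chosen after seeing the data, called 1899 genes, 610 of the 612 among them, and the same 2 members, with Irf1 at 0.65 (adjusted p 0.0181) and Irf4 at -1.36 (0.00534) in edgeR. Genes called higher were then 4 against 2 for receptors, 8 against 2 for sensors, 5 against 1 for partners and 10 against 5 for ISGF3 targets. Those called lower were 7 against 2 for genes listed as dependent on IRF8. Deviations from the group means correlated at 0.026, 0.25 and 0.45 within these pairs. The last 2 values were above those of all other WT and TCL combinations, the next being 0.0999 for WT library 7 and TCL library 4. WT library 3 had 0.043 with TCL library 10, close to its 0.026 with TCL library 4. These values do not settle whether the libraries were paired. The main fit and the fits without single libraries hold no block, so their p-values ignore any pairing. Of the 14 interferon genes 1 could be tested, and the cause of the low counts of the others was not tested.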
